A study of Mus musculus with 10 samples.

Results

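The PDZ-LIM genes of the mouse and the gene of their Z-disc partner alpha-actinin 2 were followed in heart muscle cells sorted 5 days after a myocardial infarction. The 8 genes were taken from the deposited count table by symbol: Pdlim1, Pdlim2, Pdlim3, Pdlim4, Pdlim5, Pdlim7, Ldb3 and Actn2. They are 8 of 56832 genes in the table, and all 8 were among the 12115 genes with enough counts to be tested. All 10 libraries came from Sprr1a-GFP mice, a reporter strain in which green fluorescence is tied to Sprr1a, an injury-induced small proline-rich protein gene, and every title carries the tag Hetz. The infarction was made at 12 weeks of age, and all 10 libraries came from infarcted hearts. Cells freed by Langendorff digestion were sorted into GFP+ cells, labelled border zone cardiomyocytes, and GFP− cells, labelled remote zone cardiomyocytes. The animals were 5 mice named 17C1, 17C2, 21A4, 21A5 and 21A7, with a GFP+ and a GFP− library each. Per-library values are given in this order of mice. The 2 libraries of an animal were paired in within-mouse differences and blocked fits, but not in unpaired fits or in the permutation of ratios. The titles of the GFP+ libraries name a DAPI-negative and a DAPI-positive sort, those of the GFP− libraries a DAPI-negative sort alone. GFP status and the DAPI gate therefore cannot be told apart.

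PDZ-LIM proteins carry an N-terminal PDZ domain, which in several of them binds alpha-actinin, the crosslinker of actin filaments at the sarcomere Z-disc, and LIM domains at the C-terminal end, which dock kinases and other signalling proteins. The ALP subfamily (Pdlim1, Pdlim2, Pdlim3 and Pdlim4) has a single LIM domain, and the Enigma subfamily (Pdlim5, Pdlim7 and Ldb3) has several. Ldb3, also called ZASP or Cypher, holds the cardiac Z-disc together under load, and its loss or mutation causes cardiomyopathy. Pdlim5 and Ldb3 are also made as short forms without LIM domains, which counts per gene do not separate.

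Sequencing depth and purity differed among libraries. Total counts were 12244373 to 38879965 per library, but the mitochondrial genome gave 9.20% of the GFP− and 91.2% of the GFP+ library of mouse 21A7, the lowest and highest shares, so that 3417972 to 16918067 counts were left for other genes. Sprr1a, which checks the sort, had at least 1452 counts in each GFP+ library and at most 406 in each GFP− library. All 8 cardiomyocyte markers examined (Myh6, Tnnt2, Tnni3, Actc1, Ryr2, Myl2, Pln and Ttn) were detected in every library. Their summed share of non-mitochondrial counts had a median of 3.997% in GFP+ (range 2.75% to 9.16%) and 6.72% in GFP− libraries (range 1.35% to 9.33%), and was lowest in the GFP− library of 21A7. The summed share of 4 lists of fibroblast, mural, endothelial and macrophage markers, of 8 genes each, was 0.0676% to 0.0943% in the 4 libraries of the 17C mice. There the mural list alone gave 0.0166% to 0.0269%. In the 21A mice the summed share was 2.35%, 3.78% and 4.77% in GFP− and 0.563%, 0.474% and 1.61% in GFP+ libraries. Fibroblast markers were Col1a1, Col1a2, Col3a1, Pdgfra, Dcn, Lum, Postn and Tcf21. Mural markers were Myh11, Rgs5, Pdgfrb, Kcnj8, Notch3, Cspg4, Abcc9 and Higd1b. Endothelial markers were Pecam1, Cdh5, Kdr, Flt1, Tie1, Egfl7, Emcn and Esam. Macrophage markers were Cd68, Csf1r, C1qa, C1qb, Adgre1, Lyz2, Mrc1 and Fcgr1. Cspg4 was the 1 of 8 mural markers with an estimate above 0, and was higher in GFP+ in 5 of 5 mice. Of 6 neutrophil and lymphocyte markers, 3 to 6 were at 0 in each library. The identifiers fall into these 2 series, 17C (2 mice) and 21A (3 mice), whose titles are worded differently, and results are given within each series beside the pooled ones.

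Across all 5 mice, 3 PDZ-LIM genes had means higher in GFP+ cells by more than the SD of either group, Pdlim5, Pdlim3 and Pdlim7. The last changed sign in the unpaired fit under 2 other scalings. The mean of Pdlim2 was lower in GFP+ cells, but by less than its SD in GFP− cells, and 2 of 5 mice were higher. The group means of Actn2, Ldb3, Pdlim1 and Pdlim4 differed by less than their SD. Without pairing, 0 of the 8 genes passed an adjusted p of 0.05 in edgeR's quasi-likelihood test with Benjamini-Hochberg adjustment over all tested genes, and 0.0825% of all tested genes did. At an unadjusted p under 0.05 there were 3 of the 8, against 991 of 12115. With the mouse as a block in the same test, Pdlim5 rose, 1 of the 8, against 0.858% of tested genes. In CPM (counts of a gene scaled to a common library size), Pdlim5 and Pdlim3 were higher in the GFP+ library in 5 of 5 mice. So were 9.14% of tested genes. On that scale 0 of the 8 were lower in 5 of 5, as were 8.02%. The ranges of the groups in CPM did not overlap for Pdlim3 alone, 1 of 8 against 1.54% of tested genes. The median log2 fold change of the 8 genes was 0.08 (0.31 with the block), beside −0.07 (−0.04) over all tested genes. In RNA of sorted pools, fewer cells of a type and less RNA per cell cannot be told apart.

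**Figure D1:**
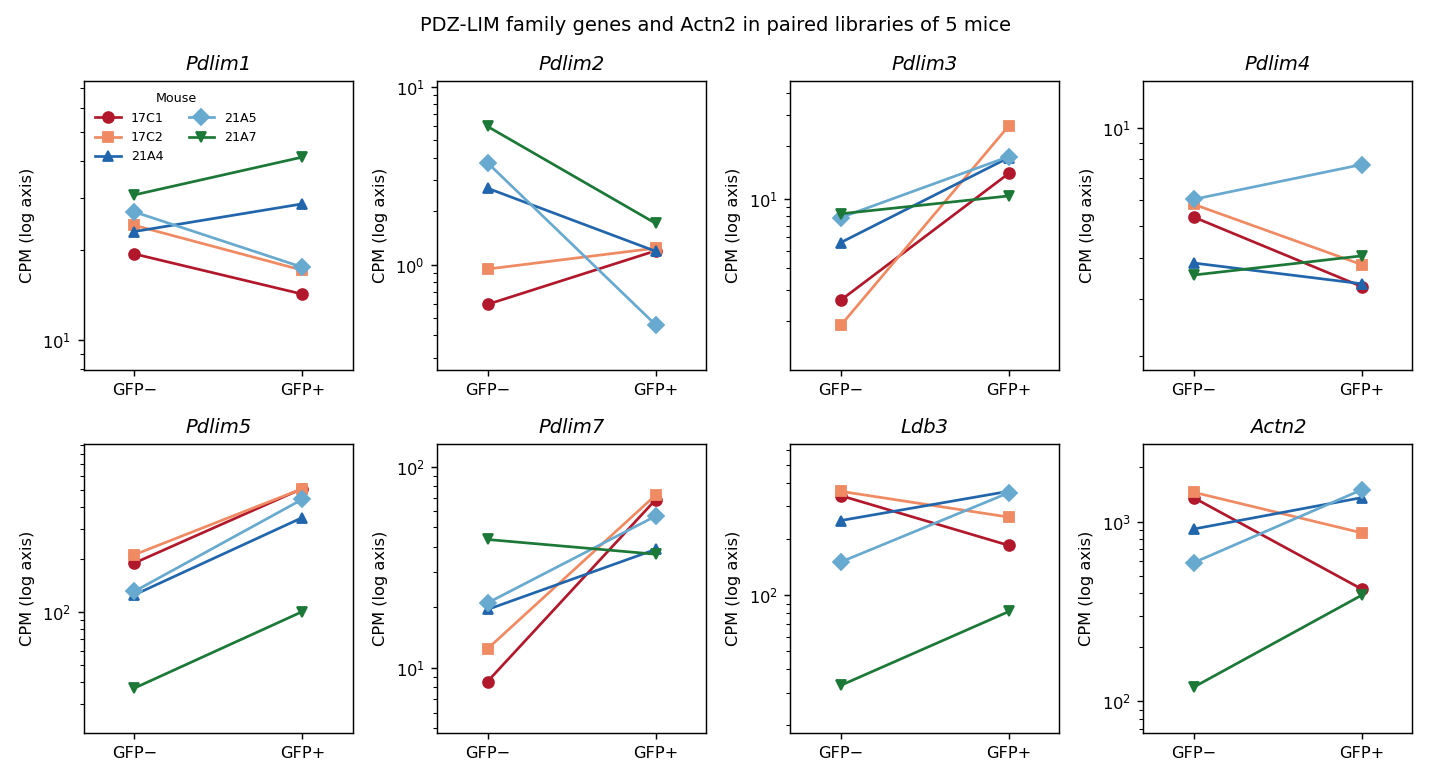
CPM of each of the 8 genes (log axis) in the GFP− and GFP+ library of each mouse, joined by a line per mouse. With this scaling all 5 lines of Pdlim5 and Pdlim3 climb, whereas the lines of Ldb3 and Actn2 fall in 17C1 and 17C2 and climb in the 3 21A mice.

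Pdlim5, known as ENH, tethers protein kinase C and D to the Z-disc and was the member with the most even within-mouse difference of the 8. Its GFP+ libraries held 508, 507, 347, 441 and 101 CPM. The paired GFP− libraries held 191, 213, 126, 132 and 36.9 CPM. Both libraries of 21A7 were the lowest of their group, and the groups overlapped only because the GFP+ library of 21A7 lay below 4 GFP− libraries. Within mice the difference was 1.41, 1.25, 1.46, 1.74 and 1.45 in log2 CPM, a mean of 1.46 ± 0.18 (SD, n = 5). Among 410 tested genes averaging 100 CPM or more, the median SD of this difference was 0.85, and 14 genes (3.41%) had an SD no larger than that of Pdlim5.

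The log2 fold change of Pdlim5 was 1.45 ± 0.53 (SE; edgeR adjusted p = 0.503) without pairing and 1.46 ± 0.24 (adjusted p = 0.0418) with the mouse as a block. It rose by 1.34 ± 0.23 in the 17C mice alone (edgeR adjusted p = 0.00861). There, 3 of the 8 genes passed, against 9.53% of tested genes. In the 21A mice alone the value was 1.62 ± 0.68 (edgeR adjusted p = 0.398), where 0 of the 8 and 0 genes in all passed, 3 of the 8 and 1621 genes having an unadjusted p under 0.05. With the block it rose in each series, by 1.34 ± 0.26 (edgeR adjusted p = 0.00120) and 1.57 ± 0.25 (0.0111), where 13.6% and 6.72% of tested genes passed. The blocked difference between the series was −0.22 ± 0.35 (edgeR adjusted p = 0.754). Leaving out 1 mouse at a time, the blocked value stayed between 1.37 and 1.52, and the call held without 17C1 and was lost without each of the other mice (edgeR adjusted p 0.0434 to 0.256). Without pairing, DESeq2 gave 1.43 (adjusted p = 0.148) and limma voom with sample weights 1.48 (0.0616), neither passing. With the block both called Pdlim5, in fits added after seeing the data where 895 and 1163 genes passed. Relative to the cardiomyocyte markers Pdlim5 was at 1.32 (1.26 with the block) and did not pass. Scaled to library size alone, which moved the median of all tested genes to −1.24 (−1.15 with the block), Pdlim5 was at 0.80 (0.40) and did not pass. Relative to total counts, which include the mitochondrial ones, its within-mouse differences were 1.502, 1.484, −0.21, 1.07 and −2.32, and relative to counts outside mitochondrial genes they were 1.09, 1.16, 1.04, 1.27 and 1.05.

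The 4 libraries with the lowest Pdlim5 CPM were also the 4 with the highest non-myocyte marker shares. Over the 10 libraries, which share depth and composition with both measures, log2 CPM of Pdlim5 and the log2 share of macrophage markers had a Pearson r of −0.78, and r was −0.76 for endothelial and −0.70 for fibroblast markers. With the log2 share of the 4 lists as a covariate, the unpaired value was 1.10 ± 0.42 (edgeR adjusted p = 0.243). In the 17C mice, whose libraries held 0.0676% to 0.0943% of these markers, the difference was 1.41 and 1.25 in log2 CPM, while their cardiomyocyte share was 2.75% and 3.997% in GFP+ against 6.72% and 7.93% in GFP− cells. The part of these shares in the result was not tested.

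**Figure D2:**
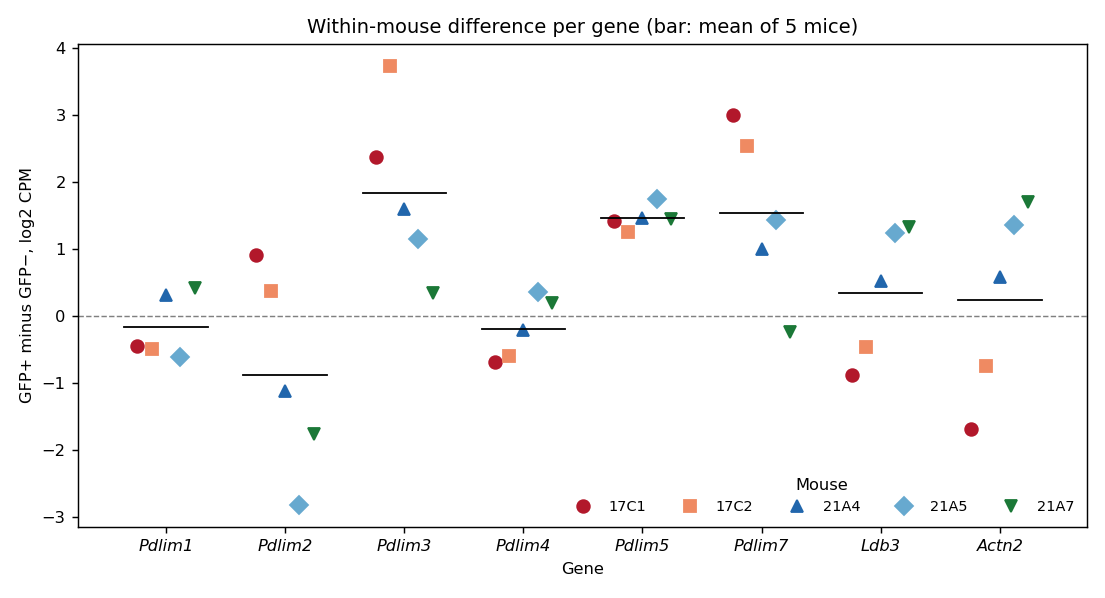
GFP+ minus GFP− difference in log2 CPM for each gene (horizontal axis) and mouse (symbols), with a bar at the mean of the 5 mice and a dashed line at 0. The 5 symbols of Pdlim5 lie between 1.25 and 1.74, while those of Actn2 spread from −1.69 to 1.70.

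The 250 bases before the RefSeq start site of Pdlim5 (GRCm38.p6, chr3:142395697-142395946, minus strand) are shown because this gene had the most even difference. Sites for factors of muscle and stress genes were searched on both strands: the SRF CArG box, the MEF2 box, the TEAD site GGAATG and the AP-1 site TGANTCA. Capitals mark matches here and below, and this window holds 0.
Pdlim5: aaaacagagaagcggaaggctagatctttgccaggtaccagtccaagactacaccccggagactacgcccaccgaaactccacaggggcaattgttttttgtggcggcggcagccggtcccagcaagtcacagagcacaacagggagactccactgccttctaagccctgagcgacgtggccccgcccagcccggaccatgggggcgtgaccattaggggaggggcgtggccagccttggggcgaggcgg

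Pdlim3, known as ALP, is the muscle member of its subfamily and binds alpha-actinin at Z-discs and intercalated discs. Its GFP+ libraries held 13.9, 26.0, 17.1, 17.4 and 10.4 CPM, the last in 21A7. The paired GFP− libraries held 2.63, 1.89, 5.61, 7.79 and 8.19 CPM. On this scale every GFP+ library was above every GFP− library, though those of 21A7 were close, and relative to counts outside mitochondrial genes that mouse was at −0.06. Relative to total counts the within-mouse differences were 2.49, 4.01, −0.07, 0.48 and −3.43, higher in 3 of 5 mice. The log2 fold change was 1.69 ± 0.43 (SE; edgeR adjusted p = 0.232) without pairing and 1.798 ± 0.47 (0.134) with the block. DESeq2 gave 1.65 (adjusted p = 0.0278), with 1.69% of tested genes called, and limma voom with sample weights 1.57 (0.0104), with 2.77% called. With the non-myocyte share as a covariate, Pdlim3 was at 2.14 (edgeR adjusted p = 0.0408), 1 of the 8 genes called against 0.908% of tested genes. By library size alone it was at 0.25 (0.81 with the block), and relative to the cardiomyocyte markers at 0.35 (1.57), and did not pass. In the 17C mice Pdlim3 rose by 3.14 ± 0.47 (edgeR adjusted p = 0.00548), and in the 21A mice the value was 1.08 ± 0.33 (0.279). The difference between the series was 2.03 ± 0.58 with the block (edgeR adjusted p = 0.0615).

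Pdlim7, known as Enigma, binds tropomyosin through its PDZ domain and receptor kinases through its LIM domains. Its GFP+ libraries held 68.5, 72.2, 38.8, 56.8 and 36.7 CPM. The paired GFP− libraries held 8.55, 12.4, 19.5, 21.02 and 43.4 CPM. It was higher in GFP+ cells in 4 of 5 mice, and 21A7 was the exception. In the 17C mice Pdlim7 rose by 2.76 ± 0.27 (edgeR adjusted p = 0.00112), so that all 3 members called there were higher, a direction in which 4.61% of tested genes passed, while 4.92% passed as lower. In the 21A mice the value was 0.68 ± 0.39 (edgeR adjusted p = 0.526). Over all mice it was 1.38 ± 0.42 (edgeR adjusted p = 0.376) without and 1.55 ± 0.46 (0.174) with the block. It passed in limma voom (1.41, adjusted p = 0.0199) and in edgeR without mouse 21A7 (1.93, 0.0479). Its sign turned in the unpaired fit under 2 scalings, to −0.12 by library size alone and to −0.14 relative to the cardiomyocyte markers (0.64 and 1.33 with the block, not passing). Under the second the median of all tested genes was −0.73 and 0 genes passed (384 at an unadjusted p under 0.05).

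Pdlim3 and Pdlim7 followed each other over the 10 libraries, with a Pearson r of 0.92 in log2 CPM (Spearman 0.90), points that share library scaling and pairing by mouse. Neither tracked Actn2 (r of −0.16 and −0.36), and both had an r between −0.29 and 0.16 with the fibroblast, mural, endothelial and macrophage shares. Both GFP− libraries of the 17C mice were at the low end for both genes. Their upstream windows are set side by side because the genes moved together (GRCm38.p6, chr8:45885237-45885486, plus strand, and chr13:55513447-55513696, minus strand). Pdlim3 has 2 matches to the TEAD site, GGAATG at −201 to −196 and its reverse complement CATTCC at −11 to −6, counted from the start site, and Pdlim7 has 0 matches of any kind. A TEAD match is found in 12.6% of the 32851 mouse promoter windows of this length.
Pdlim3: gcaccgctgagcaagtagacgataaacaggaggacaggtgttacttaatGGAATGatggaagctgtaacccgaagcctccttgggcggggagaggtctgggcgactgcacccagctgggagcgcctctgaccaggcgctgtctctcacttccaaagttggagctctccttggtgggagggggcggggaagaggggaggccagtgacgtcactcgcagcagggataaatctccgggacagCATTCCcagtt
Pdlim7: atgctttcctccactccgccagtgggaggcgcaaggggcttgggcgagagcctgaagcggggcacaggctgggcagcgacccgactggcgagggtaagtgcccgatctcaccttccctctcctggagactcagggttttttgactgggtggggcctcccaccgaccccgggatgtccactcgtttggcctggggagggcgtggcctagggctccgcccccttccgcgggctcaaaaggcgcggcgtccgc

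Actn2, alpha-actinin 2 itself, and Ldb3 moved as a pair, lower in GFP+ cells of the 17C mice and higher in those of the 21A mice on the CPM scale. Actn2 stood at 420.4, 865, 1359, 1505 and 390.4 CPM in the GFP+ libraries. In the paired GFP− libraries it stood at 1355, 1454, 909.6, 591 and 120.2 CPM. GFP+ was lower in both 17C mice and higher in all 3 21A mice, and the GFP− library of 21A7 was the lowest of all 10. Pooled over the 5 mice, the log2 fold change was 0.04 ± 0.64 (SE; edgeR adjusted p = 0.988), and 0.26 ± 0.56 (0.869) with the block.

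Ldb3 was at 185, 263, 362, 355 and 81.9 CPM in the GFP+ libraries. Its paired GFP− libraries held 343, 362, 252.1, 151 and 32.8 CPM. The directions were those of Actn2 in each of the 5 mice, with smaller differences, and held for both genes relative to counts outside mitochondrial genes. Relative to total counts both genes were lower in GFP+ cells in 4 of 5 mice, 21A5 being the exception. The pooled log2 fold change was 0.13 ± 0.59 (SE; edgeR adjusted p = 0.964), and 0.35 ± 0.39 (0.733) with the block. The 17C mice gave −1.12 ± 0.33 for Actn2 (edgeR adjusted p = 0.0644) and −0.64 ± 0.25 for Ldb3 (0.150). With the block they gave −1.21 ± 0.28 for Actn2 (edgeR adjusted p = 0.00477) and −0.66 for Ldb3 (0.109). That blocked fit rests on 2 mice, and 13.6% of tested genes passed in it. The 21A mice gave 1.23 ± 0.36 for Actn2 (edgeR adjusted p = 0.0747) and 1.05 ± 0.28 for Ldb3 (0.0547) with the block, and 1.03 and 0.90 without it.

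The change from GFP− to GFP+ cells differed between the series for 3 of the 8 genes in the blocked fit, where 7.62% of tested genes passed that test. The differences, 17C minus 21A, were −2.43 ± 0.52 for Actn2 (edgeR adjusted p = 0.0313), −1.70 ± 0.40 for Ldb3 (0.0367) and 2.03 ± 0.49 for Pdlim7 (0.0389). So Pdlim7 had its larger positive difference in the series where Actn2 and Ldb3 were lower in GFP+ cells. Without the block, 0 of the 8 passed, as did 0% of tested genes, and 3 of the 8 and 1713 genes had an unadjusted p under 0.05 in edgeR. Marker shares differed as well: the cardiomyocyte share was lower in GFP+ cells of both 17C mice (2.75% against 6.72% and 3.997% against 7.93%). In 21A4 it was 9.16% in GFP+ against 9.33% in GFP− cells, in 21A5 8.29% against 5.56%, and in 21A7 2.77% against 1.35%. The part of these shares in the results was not tested.

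**Figure D3:**
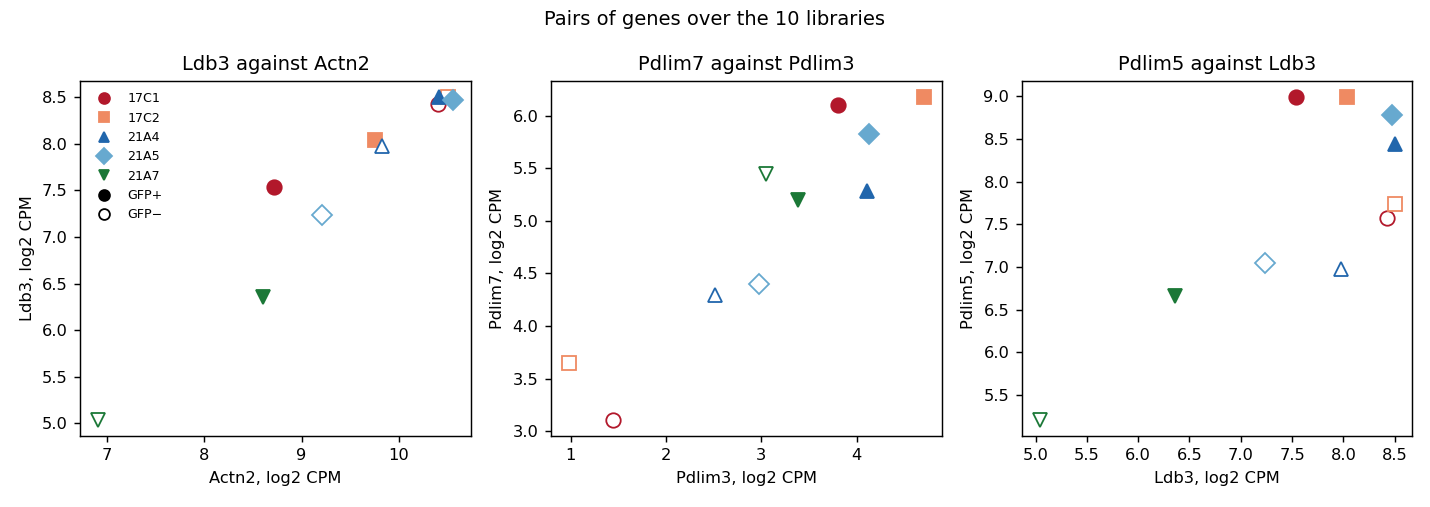
Log2 CPM of 3 gene pairs in the 10 libraries (colour and shape by mouse, filled for GFP+, open for GFP−). Ldb3 is higher where Actn2 is higher, Pdlim3 and Pdlim7 rise together, and at a given level of Ldb3 the GFP+ libraries hold more Pdlim5.

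Ldb3 and Actn2 had a Pearson r of 0.97 in log2 CPM over the 10 libraries (Spearman 0.93), and both tracked the cardiomyocyte marker share (r of 0.88 and 0.93). Library scaling drops out of their ratio. GFP− libraries held 25.3, 24.9, 27.7, 25.5 and 27.3 Ldb3 counts per 100 Actn2 counts, although their Actn2 CPM spanned 12.1-fold. GFP+ libraries held 44.1, 30.4, 26.6, 23.6 and 20.97. The ratio was thus nearly the same in all GFP− libraries and spread wider in GFP+ libraries, highest in the 17C mice. On the log2 scale it was −1.94 ± 0.07 in GFP− and −1.83 ± 0.41 in GFP+ (SD, n = 5), a difference of 0.11 (two-sided exact permutation p = 0.698). The within-mouse differences were 0.80, 0.29, −0.06, −0.11 and −0.38, positive in both 17C mice and negative in all 3 21A mice.

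The windows upstream of both genes are printed because the genes moved together (GRCm38.p6, chr14:34588682-34588931 for Ldb3 and chr13:12340733-12340982 for Actn2, both minus strand). Ldb3 has a match to the SRF CArG box, CCATTTATGG, at −35 to −26, and 1 to the AP-1 site, TGAGTCA, at −95 to −89. Actn2 has 0 matches. A CArG box was found in 1.47% of the 32851 windows, an AP-1 site in 6.75% and a MEF2 box in 0.508%. GC content of the 7 windows matched by symbol in the RefSeq table was 58.4% to 69.2%, against a median of 52.4%.
Ldb3: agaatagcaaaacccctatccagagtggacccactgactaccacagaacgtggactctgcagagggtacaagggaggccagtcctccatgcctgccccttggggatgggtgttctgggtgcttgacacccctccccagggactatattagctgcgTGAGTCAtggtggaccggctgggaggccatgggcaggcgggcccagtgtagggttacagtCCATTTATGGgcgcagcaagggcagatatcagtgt
Actn2: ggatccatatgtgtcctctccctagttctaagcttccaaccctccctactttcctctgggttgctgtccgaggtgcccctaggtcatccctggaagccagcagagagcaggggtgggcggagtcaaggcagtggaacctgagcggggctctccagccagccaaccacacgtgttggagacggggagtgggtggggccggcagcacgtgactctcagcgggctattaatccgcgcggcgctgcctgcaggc

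Set against Actn2 within each library, Pdlim5 differed most in the 17C mice. GFP+ libraries held 121, 58.6, 25.5, 29.3 and 25.9 Pdlim5 counts per 100 Actn2 counts, and GFP− libraries 14.1, 14.6, 13.8, 22.2 and 30.7. The GFP+ value was higher in 4 of 5 mice, and the groups overlapped. The mean difference was 1.23 in log2 ratio (two-sided exact permutation p = 0.0397, adjusted over all tested genes p = 1; without 17C1 it was 0.76). Of the 7 PDZ-LIM genes, 0 had ratios to Actn2 that did not overlap between the groups, against 0.347% of 12114 tested genes with a higher GFP+ ratio. By this test 0 genes passed, 395 having an unadjusted p under 0.05. The smallest p this permutation can give is 0.00794, which 135 genes reached, at an adjusted p of 0.712. No gene could pass unless many more reached that floor, so the test cannot single out 1 gene.

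Relative to Ldb3, the Enigma member nearest to it in level, Pdlim5 was higher in GFP+ cells in 5 of 5 mice. Per 100 Ldb3 counts, GFP+ libraries held 274, 193, 95.8, 124 and 123 Pdlim5 counts and GFP− libraries 55.6, 58.8, 49.9, 87.2 and 113. In 21A7 the 2 libraries were close, and in 17C1 they lay furthest apart. The mean difference was 1.12 in log2 ratio (two-sided exact permutation p = 0.0159, adjusted over all tested genes p = 0.766). That permutation ignored the pairing by mouse, and no test that keeps the pairs was run for this ratio. Of all counts of the 7 PDZ-LIM genes, Pdlim5 took between 36.5% and 63.9% in each GFP+ library and between 22.9% and 37.8% in each GFP− library.

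**Figure D4:**
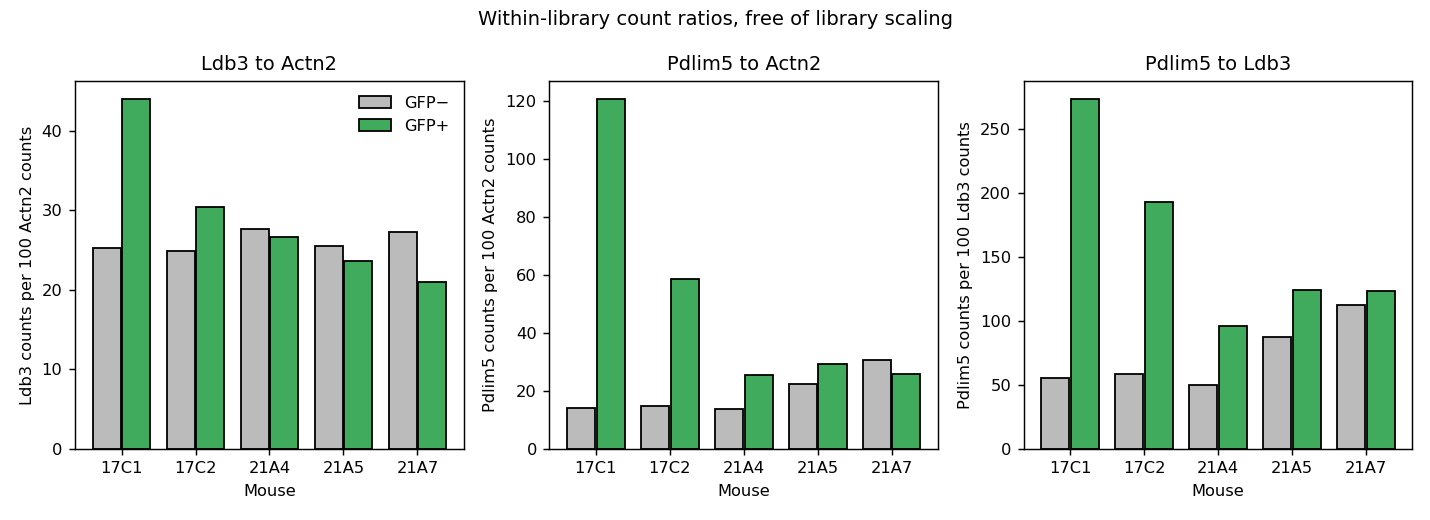
Counts of Ldb3 per 100 Actn2 counts, of Pdlim5 per 100 Actn2 counts and of Pdlim5 per 100 Ldb3 counts for each mouse (grey GFP−, green GFP+; bars start at 0, 1 library per bar). GFP− bars of Ldb3 to Actn2 all lie between 24.9 and 27.7, and Pdlim5 to Ldb3 is higher in GFP+ for every mouse.

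The remaining members of the ALP subfamily, Pdlim1, Pdlim4 and Pdlim2, had estimates below 0 that did not pass. On the CPM scale each had 2 mice higher and 3 lower in GFP+ cells. Relative to total counts, Pdlim1 and Pdlim4 were lower in GFP+ cells in 5 of 5 mice and Pdlim2 in 3. Relative to counts outside mitochondrial genes, Pdlim4 was lower in 5 of 5, Pdlim1 in 4 and Pdlim2 in 3. The shares of all tested genes lower in 5 of 5 under these scalings were not computed. Pdlim1, an alpha-actinin binder of many tissues, held 14.2, 17.1, 28.6, 17.5 and 41.1 CPM in GFP+ and 19.4, 24.2, 23.1, 26.9 and 30.7 CPM in GFP− libraries. Its groups overlapped, with a log2 fold change of −0.07 ± 0.32 (SE; edgeR adjusted p = 0.964). Pdlim4, known as RIL, held 3.26, 3.81, 3.33, 7.71 and 4.06 CPM in GFP+ and 5.32, 5.83, 3.85, 6.04 and 3.54 in GFP− libraries, a log2 fold change of −0.14 ± 0.36 (edgeR adjusted p = 0.931).

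Pdlim2, known in immune cells for targeting the NF-kappa B subunit Rela for degradation, was the least abundant member. At most 16 reads per GFP+ library were counted for it, and 10 to 331 per GFP− library. Scaled, these were 1.20, 1.24, 1.19, 0.46 and 1.71 CPM in GFP+ and 0.60, 0.94, 2.69, 3.74 and 5.98 CPM in GFP− libraries. The 3 GFP− libraries of the 21A mice were the highest. They were also the libraries with the highest non-myocyte marker shares, and over the 10 libraries log2 CPM of Pdlim2 had an r of 0.79 with the macrophage, 0.76 with the fibroblast and 0.75 with the endothelial share. The log2 fold change was −1.29 ± 0.66 (SE; edgeR adjusted p = 0.643), and −0.41 ± 0.61 (0.793) with that share as a covariate. Pdlim2 did pass as lower by library size alone (−3.21, edgeR adjusted p = 0.0495), the scaling with a median of −1.24 over all tested genes. For Pdlim1 r was 0.68 with the fibroblast, 0.68 with the endothelial and 0.66 with the macrophage share.

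Levels of different genes were compared per kilobase of annotated exon. In GFP+ cells the mean order was Actn2 (239 ± 136 CPM per kb, SD, n = 5), Pdlim5 (42.9 ± 19.1), Ldb3 (40.9 ± 19.4), Pdlim7 (11.3 ± 3.4), Pdlim1 (4.51 ± 2.12), Pdlim3 (3.29 ± 1.13), Pdlim4 (1.73 ± 0.73) and Pdlim2 (0.258 ± 0.0996). In GFP− cells it was Actn2 (233 ± 145), Ldb3 (37.4 ± 22.5), Pdlim5 (15.7 ± 7.7), Pdlim1 (4.73 ± 0.80), Pdlim7 (4.33 ± 2.79), Pdlim4 (1.92 ± 0.45), Pdlim3 (1.01 ± 0.56) and Pdlim2 (0.622 ± 0.490). The places of Ldb3 and Pdlim5, of Pdlim1 and Pdlim7 and of Pdlim3 and Pdlim4 were exchanged between the groups. Neighbours whose means ± SD overlapped in GFP+ cells were Pdlim5 and Ldb3, Pdlim1 and Pdlim3, and Pdlim3 and Pdlim4. In GFP− cells all neighbours overlapped in this way except Actn2 with Ldb3 and Pdlim5 with Pdlim1. Within the summed length-scaled level of the 7 PDZ-LIM genes, Pdlim5 took 39.2% ± 10.4 in GFP+ and 22.8% ± 5.2 in GFP− cells, and Ldb3 37.7% ± 9.8 and 51.1% ± 19.6.

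Among the other alpha-actinins, Actn3 of fast skeletal muscle did not pass the filter on low counts. Actn1 and Actn4, the widely expressed non-muscle forms, did, and 0 of 2 were called by edgeR with or without the block, by DESeq2 or by limma voom (0 without and 1 with the block at an unadjusted p under 0.05 in edgeR). Actn1 was higher in GFP+ cells in 5 of 5 mice, at 125 ± 60.6 against 86.7 ± 77.2 CPM (SD, n = 5), with a blocked log2 fold change of 1.08 ± 0.43 (edgeR adjusted p = 0.282). Actn4 was at 0.36 ± 0.42 (0.748).

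Of 21 other Z-disc genes, 20 were tested and 0 were called by edgeR with or without the block (6 and 3 at an unadjusted p under 0.05), although 6 were higher in 5 of 5 mice. DESeq2 called Des, and limma voom called Des and Synpo2l, all higher in GFP+ cells. The list's median log2 fold change was 0.35 (0.41 with the block), with medians of −0.30 in 17C and 0.86 in 21A mice. Closest to the threshold with the block were Synpo2l, an actin and alpha-actinin binding protein, at 1.70 ± 0.36 (edgeR adjusted p = 0.0776), the chaperone gene Cryab at 1.60 ± 0.37 (0.0988) and the desmin gene Des at 2.49 ± 0.58 (0.1001). The CPM ranges of Des did not overlap (4555 ± 2835 in GFP+ and 924 ± 549 in GFP− cells, SD, n = 5).

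Of 14 genes for partners bound by PDZ-LIM proteins, 12 were tested and 0 were called by edgeR with or without the block (1 and 1 at an unadjusted p under 0.05) or by DESeq2 or limma voom. Their median log2 fold change was −0.25 (−0.18 with the block). The smallest blocked adjusted p was that of Prkce, a kinase C docked at the Z-disc by Pdlim5, at −0.71 ± 0.31 (edgeR adjusted p = 0.322). Id2, a helix-loop-helix inhibitor held in the cytoplasm by Pdlim5, was at −1.93 ± 1.01 (0.414), and the insulin receptor gene Insr at −0.52 ± 0.29 (0.450).

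All 17 other LIM-domain genes examined were tested, with a median log2 fold change of 0.19 (0.38 with the block). Without the block edgeR called 0 (1 at an unadjusted p under 0.05), and with it 1, Fhl1, which DESeq2 and limma voom also called. It encodes a stretch-responsive LIM-only protein of the sarcomere. Fhl1 rose from 19.8 ± 7.75 to 124 ± 59.7 CPM (SD, n = 5), by 2.51 ± 0.26 in log2 with the block (edgeR adjusted p = 0.0201) and by 2.65 ± 0.53 without it (0.0996), and was higher in 5 of 5 mice. With the block its value was 2.80 for 17C and 2.31 for 21A mice. Csrp3, the muscle LIM protein, was at 1.27 ± 0.33 (edgeR adjusted p = 0.127), the zyxin gene Zyx at 0.93 ± 0.30 (0.194) and Lims2 at 0.86 ± 0.29 (0.216).

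Genes with the most similar pattern over the 10 libraries were chosen from 4678 tested genes averaging 10 CPM or more, as the 3 with the highest Pearson r in log2 CPM. For Actn2 they included Myom1 (r = 0.99), which crosslinks the M-band, and Cyfip2 (0.99). Ldb3 was most like Cacna1c (0.99), the pore of the L-type calcium channel, Usp13 (0.99) and Slc12a7 (0.99). Pdlim5 was most like Clic5 (0.98), Atp1b1 (0.98), the beta subunit of the sodium pump, and Cryab (0.98). For Pdlim3 they were Tubb2a (0.98), Zzef1 (0.96) and Ptprk (0.96), and for Pdlim7 Lgals1 (0.97), encoding galectin-1, Rhoc (0.96) and Dynll1 (0.95). Pdlim1 was most like Ssbp3 (0.95), Polr2a (0.94) and Dtx3l (0.94). For Pdlim2 they were Btg1 (0.95), Ddx5 (0.93) and Mbtps1 (0.93). Pdlim4 had the weakest likeness to any gene, with Oat (0.86), Gtf2a1 (0.82) and Bag3 (0.78).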

How the data were processed

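RNA of the 10 sorted pools was amplified with SMARTer chemistry and made into Nextera XT libraries, which do not mark strand, per the labels' protocols. The authors deposited 1 table of raw integer counts, one value per gene and library. Tools listed in the submitters' processing notes are STAR 2.7.9a, featureCounts, Subread 2.0.1 and fastp 0.23.1, with the build GRCm39. The sources used here do not give the annotation release, strand setting or handling of reads that map more than once, so overlapping and antisense genes are uncertain. No molecular identifiers are named.

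Groups and mice were read from titles and cell type labels, and 0 pairs of libraries were identical. The test was edgeR's quasi-likelihood one (version 4.0.16, R 4.3.3, TMM factors, filterByExpr, two-sided, adjusted p under 0.05), with limma 3.58.1 and DESeq2 1.42.0 as alternatives. SE was derived from the log2 fold change and F, and log2 CPM uses a prior count of 2. Libraries pair because they carry the same animal identifier. Same-mouse deviations from the group means correlated with r of 0.292 (17C1), 0.397 (17C2), 0.161 (21A4), 0.0741 (21A5) and 0.637 (21A7). Ratios were tested by exact permutation over all regroupings of the libraries without the pairing (smallest p 0.00794), after adding 0.5 to each count. Exon lengths came from a GENCODE annotation of the earlier build, used for length only, and upstream sequences from RefSeq (GRCm38.p6), where 7 of 8 genes matched. The fits were also run on simulated counts without mouse or series effects, which cannot decide between the blocked and unpaired fits. The members and lists were chosen with earlier results of these data known. Genes named beside the members were, per list, those called and up to 3 with the smallest p among the rest. For each member, the 3 genes most like it were named, and 1 of these is not reported here. Blocked fits with voom, DESeq2 or mitochondrial genes removed, and plain library scalings of the within-mouse differences, were added after seeing the data.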

Additional observations from a re-analysis of the deposited data

Results flagged for a closer look

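Pdlim4 in the GFP+ library of mouse 21A5 stood apart from the other 4 GFP+ libraries at 7.71 CPM. Its gap to the next library was above the critical share of the range for groups of 5 (0.71). It was 1 of 24 groups of 5 examined, and chance gives about 1 in 20.

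The change from GFP− to GFP+ cells differed between the 17C and 21A mice for 3 of the 8 genes when mice were blocked. In that test 7.62% of tested genes passed. The blocked difference, 17C minus 21A, was −2.43 for Actn2, −1.70 for Ldb3 and 2.03 for Pdlim7 (edgeR adjusted p = 0.0313, 0.0367 and 0.0389). Without the block 0 of the 8 passed, as did 0% of tested genes. For Pdlim2 every 17C mouse moved up (0.91 and 0.36 in log2 CPM) and every 21A mouse down (−1.13, −2.82 and −1.76). Its difference was 2.58 ± 1.04 in the unpaired fit (edgeR adjusted p = 0.313) and 2.67 ± 1.11 with the block (0.167), so it did not pass. The Pdlim2 counts of the 17C mice were low.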

How the results depend on the processing

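Pdlim3 and Pdlim5 kept a value above 0 in all 40 alternatives (0.25 to 3.14 and 0.40 to 1.69 in log2), and Pdlim7 in 38 of 40. These alternatives refit the same libraries. Pdlim3 passed in 7 of the 40, Pdlim5 in 8 and Pdlim7 in 6. Members past the threshold were 0 in the unpaired edgeR fit. Pdlim5 alone passed, as higher, with the replicate block, in the blocked 21A mice and with the block without mitochondrial genes. Pdlim3 alone passed, as higher, with DESeq2 and with the non-myocyte covariate. By library size alone Pdlim2 passed, as lower. Limma voom called 2, Pdlim3 and Pdlim7, as higher. The 17C mice, blocked voom and blocked DESeq2 each called 3, Pdlim3, Pdlim5 and Pdlim7, as higher. The blocked 17C mice called 4, these 3 and Actn2 as lower, where 13.6% of tested genes passed. Counts of all genes in the same settings follow. Members whose change differed between series went from 0 to 3 with the block.

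All genes past the threshold numbered 10 in the unpaired fit. They numbered 104 with the block, 205 with DESeq2, 336 with voom, 635 by library size alone, 0 relative to cardiomyocyte markers, 38 with no filter, 19 with at least 5 CPM in 5 libraries (6 members tested), 97 with the series and 110 with the non-myocyte share as covariate, 1059 in 17C mice alone and 0 in 21A mice alone. With the block they were 1510 in the 17C mice, 889 in the 21A mice, 33 by library size alone, 0 relative to cardiomyocyte markers, 107 without mitochondrial genes, 1163 with voom and 895 with DESeq2. Leaving out 1 mouse or library gave 0 to 58 genes, or 0 to 173 with the block (71 without 21A7), and 0 to 1 member.

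Signs turned as follows, and the cause was not tested. By library size alone Pdlim7 was −0.12, Ldb3 −0.39 (−0.80 with the block) and Actn2 −0.43 (−0.94). Relative to cardiomyocyte markers Pdlim7 was −0.14. With the non-myocyte covariate Pdlim1 was 0.043 and Actn2 −0.0036, and voom gave 0.14 for Pdlim4. The 17C mice gave 0.67 for Pdlim2 (0.69 with the block), −0.64 for Ldb3 (−0.66) and −1.12 for Actn2 (−1.21). The 21A mice gave 0.13 for Pdlim1 (0.060) and 0.20 for Pdlim4 (0.14). Leaving out 1 mouse or library gave −0.35 to 0.070 for Pdlim1, −0.16 to 0.42 for Ldb3 (0.095 to 0.67 with the block), −0.34 to 0.43 for Actn2 (−0.13 to 0.75 with the block, −0.068 without 21A5) and −0.065 to 0.23 for the log2 ratio of Ldb3 to Actn2. Exact sign flips within mice, a replicate block for the ratios whose smallest p is 0.0625, gave p = 0.125 for Pdlim5 to Actn2, and 0 genes passed.

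Precision is lowest for Pdlim2 (10 to 331 counts per library), and the SD and SE values rest on these 10 libraries of 5 mice only.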
